A study of Heliocidaris erythrogramma with 7 samples.

Results

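The cells described here are the *hox7*+ cells of *Heliocidaris erythrogramma* (*He*) at 20, 24 and 30 hours post fertilization (hpf), a population labelled posterior ectoderm. The samples are labelled larvae, and the study counts these stages as embryonic. A cell was taken as *hox7*+ when it held at least 2 raw unique molecular identifiers (UMIs, counts of captured RNA molecules) of *hox7*, and as *hox7*- when it held none. The cells kept had above 200 but below 4000 genes detected and a total below 10000 UMIs. Of the 11865 kept cells of these 3 libraries, 792 were *hox7*+, out of 23156 kept cells in the 7 libraries of the series. The *hox7*+ cells numbered 140 of 3078 at 20 hpf, 248 of 3441 at 24 hpf and 404 of 5346 at 30 hpf. The *hox7*- cells numbered 2839, 3072 and 4760, and cells with 1 *hox7* UMI (99, 121 and 182) were placed in neither group.

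*He* is a sea urchin whose larva does not feed and lives on maternal stores, and its larval ectoderm soon comes to hold the adult rudiment. The groups differ in age alone, with no allele or agent named in the labels. Their cells were dissociated and fixed in methanol before 10x Genomics 3′ libraries were made, and each age is represented by 1 library, so a difference between ages cannot be told apart from a difference between libraries. For this reason no p-value is given. Levels are UMI counts summed over the cells of a group and scaled to CPM, which gives every group the same total, intervals are exact 95% intervals (Poisson for summed UMIs, Clopper-Pearson for shares of cells), and both cover counting error only.

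*hox7* encodes a homeodomain transcription factor of the Hox cluster. In sea urchins with a feeding larva it is transcribed in the aboral ectoderm, which is patterned by BMP signalling and by the T-box factor Tbx2/3. *lox* belongs to the ParaHox genes and is known in such larvae from the gut, *msx* encodes a homeodomain factor of the aboral ectoderm, and *wnta* encodes a secreted Wnt ligand. Wnt ligands bind Frizzled receptors and act in posterior identity in many animals, while secreted antagonists such as Dkk1 and Sfrp1/5 limit them at the anterior end.

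The transcripts that define and mark these cells can be located in whole larvae with split probes for the hybridization chain reaction. From the study's list, probes of 45 bases were read, 31 for *hox7* and 44 for *hmx*, a homeobox gene that was also high in these cells. Entries of another form were not counted, so 31 may not be the full number. The first listed pair for each gene is shown because these oligos read the same RNAs that were counted here, with the 25 bases that pair with the RNA in capitals and the spacer and amplifier initiator in lower case. The 25 pairing bases held between 40% and 76% G or C over the *hox7* probes.
hox7 probe 1: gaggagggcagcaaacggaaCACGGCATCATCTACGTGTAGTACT
hox7 probe 2: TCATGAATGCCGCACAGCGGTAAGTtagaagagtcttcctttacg
hmx probe 1: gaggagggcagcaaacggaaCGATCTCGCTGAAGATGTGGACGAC
hmx probe 2: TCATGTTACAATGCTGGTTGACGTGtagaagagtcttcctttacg

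The 3 libraries held 4797317, 8696256 and 7469402 UMIs in kept cells, with medians of 1488, 2338 and 1273 UMIs per cell. The *hox7*+ cells were about as deep as the *hox7*- cells, with medians of 1637.5 against 1466 UMIs at 20 hpf, 2432.5 against 2324 at 24 hpf and 1176.5 against 1278 at 30 hpf. Pairs of these libraries shared 5, 2 and 3 cell barcodes, and no barcode was *hox7*+ in more than 1 library.

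A single feature carries the name *hox7*. Its level over all kept cells was 211 CPM (198 to 225) at 20 hpf, 328 CPM (316 to 340) at 24 hpf and 445 CPM (430 to 460) at 30 hpf. The *hox7*+ cells held 90.2%, 95.8% and 94.5% of these UMIs, with a median of 4, 7 and 6 UMIs per *hox7*+ cell and up to 29, 54 and 52. As shares of the kept cells they made up 4.55% (3.84 to 5.35), 7.21% (6.37 to 8.12) and 7.56% (6.86 to 8.30). The share at 20 hpf lay below the other two, whose intervals overlapped. The rule counts raw UMIs, and the shares were not matched for depth, which differed between libraries (medians of 1488, 2338 and 1273 UMIs per cell). These values follow from the rule and are given as a description.

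**Figure D1:**
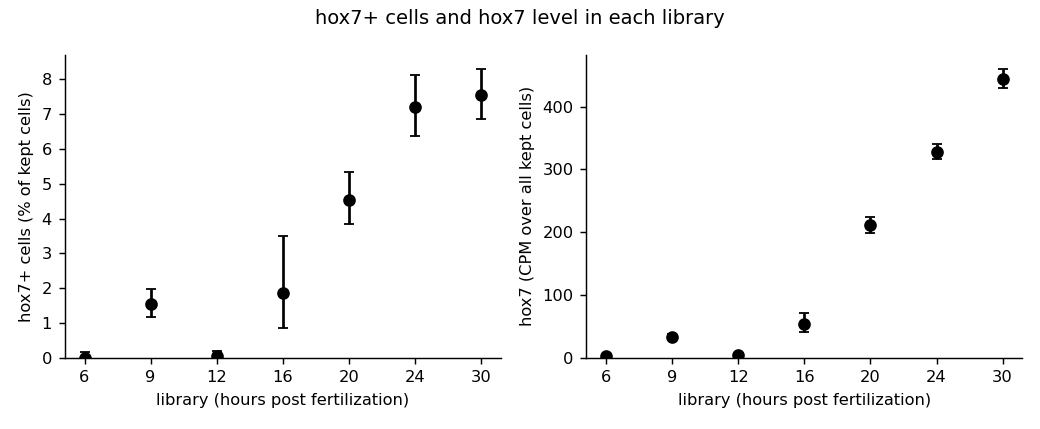
Share of kept cells with at least 2 *hox7* UMIs (left, percent) and level of *hox7* over all kept cells (right, CPM) in each of the 7 libraries, by hours post fertilization; bars are exact 95% intervals for counting error. The share was 4.55%, 7.21% and 7.56% in the 3 latest libraries and at most 1.85% in the 4 earlier ones.

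The label was checked against the markers given for it. *wnta* stood at 402 CPM in *hox7*+ and 55.9 CPM in *hox7*- cells at 20 hpf, at 479 and 50.04 CPM at 24 hpf, and at 937 and 119 CPM at 30 hpf. *lox* stood at 333.0 against 14.9 CPM, 442 against 20.6 CPM and 275 against 17.8 CPM. *msx* stood at 435 against 13.1 CPM, 357 against 33.4 CPM and 343 against 69.2 CPM. All 3 genes were thus higher in *hox7*+ cells of every library with intervals far apart, by log2 ratios between 2.16 and 4.27 after 10 CPM was added to both levels. The ratio of *msx* was 4.27, 3.08 and 2.16 from the youngest to the oldest library, and its level in *hox7*- cells was 13.1, 33.4 and 69.2 CPM. The study chose these markers on a set that includes these libraries, so they are no independent check.

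Single cells seldom showed all of the markers at this depth. A UMI of at least 1 of *wnta*, *lox* and *msx* was found in 65.7%, 71.8% and 67.3% of *hox7*+ cells and in 8.59%, 12.8% and 16.3% of *hox7*- cells. With each cell thinned to 500 UMIs, which left out 2, 0 and 4 shallower *hox7*+ cells and 153, 0 and 171 *hox7*- cells, *wnta* was detected in 14.5%, 22.2% and 33.8% of *hox7*+ cells (40.0%, 52.4% and 55.2% before thinning). *lox* was detected in 18.8%, 22.2% and 12.0% (36.4%, 51.6% and 26.0% before thinning), and *msx* in 15.9%, 15.7% and 15.8% (37.1%, 41.1% and 29.5%). Pigment-type cells, with at least 2 UMIs of *pks1* and none of *hox7*, served as the measure of free RNA. Before thinning, none of 124, 169 and 134 such cells, with median depths of 1568, 2305 and 1325 UMIs, held a *wnta* UMI, so that shares up to 2.42%, 1.78% and 2.24% remain possible. The shares in *hox7*+ cells were far above this background for each marker.

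Compared across all features, 126 of 5733 (2.20%) were at least 2-fold higher in *hox7*+ cells at 20 hpf with intervals apart, and 202 (3.52%) were lower. At 24 hpf 245 of 5371 (4.56%) were higher and 217 (4.04%) lower, and at 30 hpf 259 of 5536 (4.68%) were higher and 337 (6.09%) lower. These limits, on a scale of log2(CPM + 10) and for features with a mean of at least 20 CPM over both groups, are what is meant below by higher and lower. At all 3 time points 38 features of 4801 (0.792%) were higher, *hox7* itself among them, and 78 (1.62%) were lower, and the median log2 ratio over all features compared lay between 0.00 and 0.03.

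The next result bears on all that follow, since the *hox7*+ cells fell into 2 kinds. *scl*, a transcription factor of mesoderm, was at 2319 CPM in *hox7*+ and 943 CPM in *hox7*- cells at 20 hpf, at 354 and 313 CPM at 24 hpf, and at 239 and 456 CPM at 30 hpf. Its UMIs came from a minority of cells, namely 21 of 140, 43 of 248 and 35 of 404. *185/333d1* and *astacin4*, markers that the study lists beside *scl* and *irf4* for Blastocoelar cells, the immune-type cells of the larval body cavity, were concentrated in the same minority. *hox7*+ cells with an *scl* UMI, or with at least 5 UMIs of *185/333d1* and *astacin4* together, are called Bl+ below and the others Bl-. This division was chosen after the values were seen. There were 23, 51 and 63 Bl+ cells, or 16.4%, 20.6% and 15.6% of the *hox7*+ cells.

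The kinds were sharply apart. *hox7*+ Bl+ cells held a median of 18, 67 and 29 UMIs of *185/333d1* and *astacin4*, while 113 of 117, 185 of 197 and 325 of 341 Bl- cells held none. Both genes helped to define the division, so this contrast is in part set by it. Only 0, 0 and 5 *hox7*+ cells without *scl* held between 3 and 7 of these UMIs, near the limit of 5. *irf4*, which the division did not use, stood at 112, 134 and 23.6 CPM in Bl+ cells, and in Bl- cells at 0 CPM at 20 and 24 hpf (no UMI) and 4.79 CPM at 30 hpf. In Bl+ cells 1 UMI amounts to 18.6 CPM at 20 hpf and 7.87 CPM at 30 hpf. In Bl- cells it amounts to 2.40 CPM at 30 hpf. The *irf4* levels at 20 and 30 hpf thus rested on few UMIs. *gatac*, another transcription factor of mesoderm, stood at 335, 29.9 and 55.1 CPM in Bl+ cells and at no UMI, no UMI and 2.40 CPM in Bl- cells.

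The genes of the posterior ectoderm were low in the Bl+ cells. *wnta* was at 55.9, 54.8 and 63.0 CPM in Bl+ cells and at 498, 655 and 1202 CPM in Bl- cells. *unc4.1-1*, a homeobox gene, was at 93.2, 54.8 and 165 CPM against 1791, 1329 and 2692 CPM. A UMI of at least 1 of *wnta*, *lox*, *msx*, *unc4.1-1* and *hmx* was found in 94.0%, 95.9% and 95.01% of Bl- cells and in 21.7%, 11.8% and 12.7% of Bl+ cells, while the share in *hox7*- cells was 26.8%, 30.9% and 21.4%. *unc4.1-1* and *hmx* are not among the markers listed for the label and were found higher in these same *hox7*+ cells. This share is therefore a description. Judged by the listed marker *wnta*, the label of posterior ectoderm fitted the Bl- cells better than the Bl+ cells.

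The Bl+ cells held less *hox7* than the Bl- cells. Its level was 1099, 921 and 1393 CPM in Bl+ and 4440, 5248 and 7094 CPM in Bl- cells, with medians of 2 UMIs in each library against 6, 9 and 7. Bl+ cells were deeper, with medians of 2175, 3566 and 1761 UMIs against 1528, 2276 and 1111. Among all kept Bl+ cells of the libraries, 5.26%, 10.4% and 9.52% held at least 2 *hox7* UMIs, against 0 of 129, 1 of 172 and 0 of 134 pigment-type cells (0 of 129 and 0 of 134 leave room for up to 2.33% and 2.24%). The share in Bl+ cells was therefore above that of pigment-type cells, although their depth was also greater (medians of 1743, 2708 and 1515 UMIs against 1572, 2305.5 and 1325). Of the 23, 51 and 63 *hox7*+ Bl+ cells, removal of the cells with the highest doublet scores took 0, 2 and 7, that is 0%, 3.92% and 11.1%, beside 2.47%, 2.76% and 4.28% of all kept cells. The part of doublets or free RNA in the *hox7* UMIs of Bl+ cells was not tested.

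**Figure D2:**
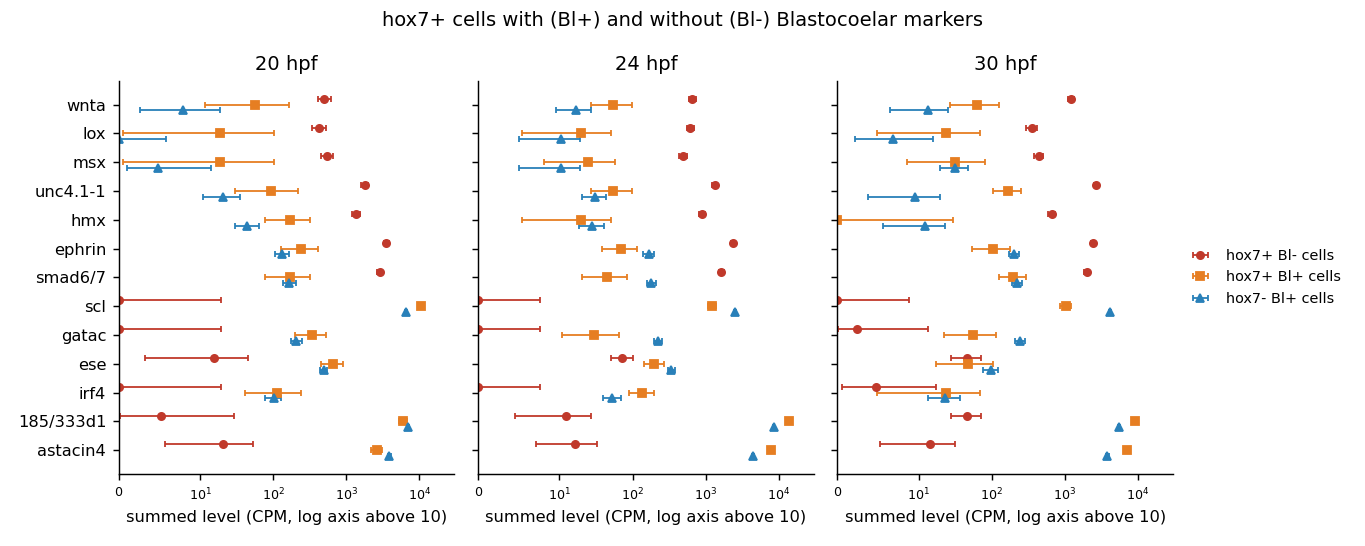
Summed level (CPM, log axis above 10) of 13 genes at each time point in *hox7*+ cells without Blastocoelar markers (Bl-, circles), *hox7*+ cells with them (Bl+, squares) and *hox7*- cells with them (triangles); bars are exact 95% Poisson intervals. The *hox7*+ Bl+ cells lie far below the *hox7*+ Bl- cells for *wnta*, *lox*, *msx*, *unc4.1-1*, *hmx*, *ephrin* and *smad6/7*, for example *unc4.1-1* at 24 hpf at 54.8 against 1329 CPM, with 30.4 CPM in the *hox7*- Bl+ cells; *scl*, *185/333d1* and *astacin4* defined the division.

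The number of *hox7* UMIs separated these kinds in part. Just outside the rule, cells with 1 UMI held 128, 47.7 and 101 CPM of *wnta* and 4339, 9196 and 7186 CPM of *185/333d1*. Just inside it, cells with 2 UMIs (30, 48 and 83 cells) held 86.9, 165 and 227 CPM of *wnta* and 3928, 8562 and 6003 CPM of *185/333d1*. Cells with 6 or more UMIs (60, 135 and 215 cells) held 435, 741 and 1308 CPM of *wnta*, and *185/333d1* at no UMI, 438 and 243 CPM. For both genes the cells on either side of the limit were nearer to each other than to the cells with most *hox7*.

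**Figure D3:**
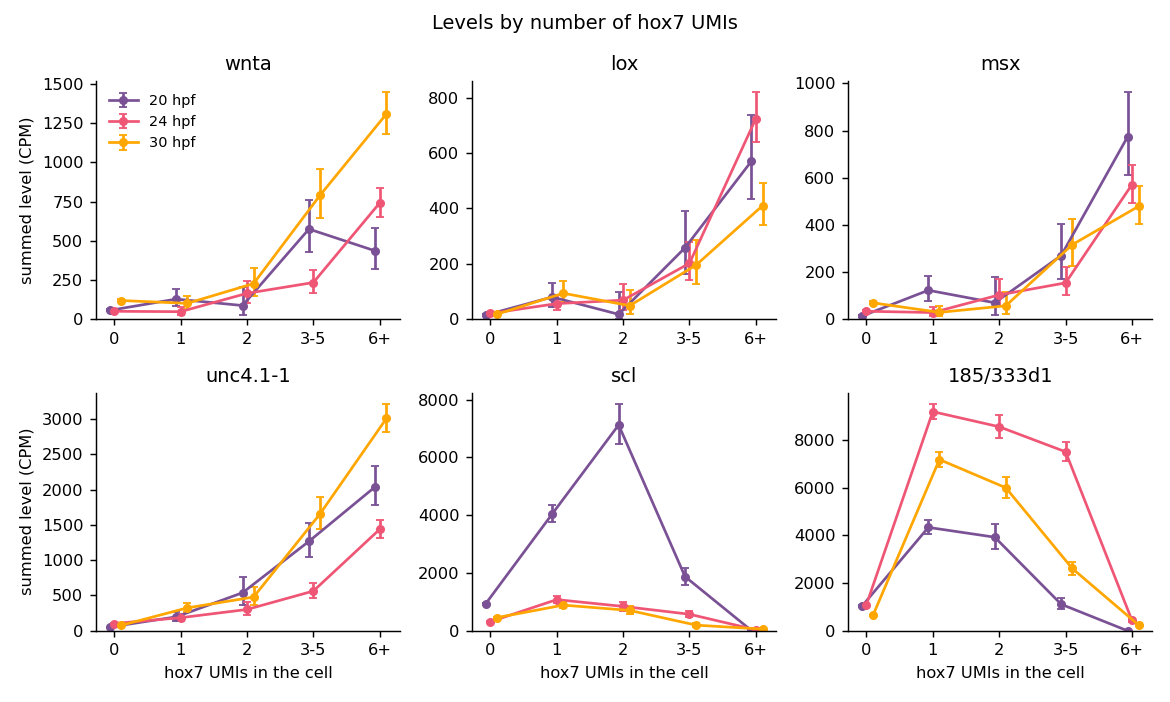
Summed level (CPM) of 6 genes in cells grouped by their number of *hox7* UMIs (0, 1, 2, 3 to 5, 6 or more) at 20, 24 and 30 hpf; bars are exact 95% Poisson intervals. *unc4.1-1* is highest in cells with 6 or more UMIs (2040, 1438 and 3005 CPM), whereas *185/333d1* is highest in cells with 1 UMI.

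The Bl+ cells were next left out of the *hox7*+ group alone, while *hox7*- cells with the same markers stayed in the comparison. Lower calls for genes of Blastocoelar cells therefore follow in part from this step. It is what is meant below by without the Bl+ cells. Then 196 of 5648, 195 of 5278 and 350 of 5426 features compared were higher. Of the same features 345, 363 and 498 were lower. Of the features called higher with all *hox7*+ cells, 95 of 126, 67 of 245 and 134 of 259 were called again, and 10, 41 and 26 became lower. Of those called lower, 173 of 202, 180 of 217 and 304 of 337 were called again and 0 became higher. At all 3 time points 59 features were higher without the Bl+ cells, 28 of them among the 38. In the following, values are for all *hox7*+ cells unless Bl- is named, and for the genes named, calls that were lost without the Bl+ cells are stated.

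Among the features that were higher at all 3 time points were genes of several transcription factors. *unc4.1-1*, summed from 7 features, had 350, 656 and 1145 UMIs in *hox7*+ cells, or 1421, 956 and 2103 CPM, against 52.7, 103 and 76.0 CPM in *hox7*- cells. These are log2 ratios of 4.51, 3.09 and 4.62, the largest of all features compared at 20 and 30 hpf apart from *hox7* itself. *hmx* was at 1105, 644 and 505 CPM against 231, 127 and 44.5 CPM, so that its level was lower in the older libraries in both groups while the log2 ratio was 2.21, 2.25 and 3.24. *eve*, the even-skipped homeobox gene that marks posterior and vegetal territories in many animals, was at 252, 154 and 121 CPM against 38.7, 20.0 and 10.2 CPM. *egr*, a zinc-finger gene of the early growth response family, was at 110, 194 and 84.5 CPM against 14.0, 18.3 and 15.04 CPM.

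Genes of other kinds were higher at all 3 time points as well. *p75ntr*, a gene of the neurotrophin receptor family, was at 321, 325 and 204 CPM against 66.5, 80.9 and 40.0 CPM. *nacha3-1*, named for a nicotinic acetylcholine receptor subunit, was at 146, 115 and 129 CPM against 22.9, 29.7 and 27.8 CPM. *tmtc2*, which encodes an enzyme that adds mannose to proteins, was at 1673, 974 and 1001 CPM against 247, 232 and 132 CPM. *lztr1*, a name shared by 22 features whose reads cannot be told apart with certainty, was at 889, 557 and 420.5 CPM against 117, 100 and 56.0 CPM. *hypp-2618* (52.8, 62.7 and 44.1 CPM against 14.0, 12.9 and 9.93 CPM), has no annotated function in its name, and its log2 ratios of 1.39, 1.66 and 1.44 turned to -1.26, -1.20 and -0.99 without the Bl+ cells.

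**Figure D4:**
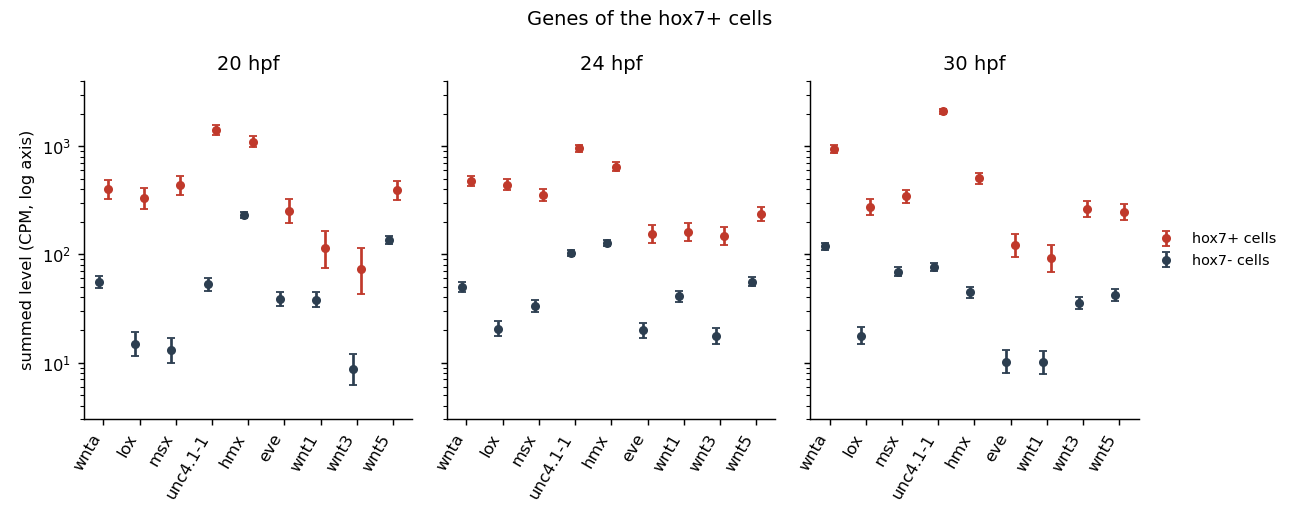
Summed level (CPM, log axis) of 9 genes in *hox7*+ and *hox7*- cells at 20, 24 and 30 hpf; points are the summed level of 1 library and bars are exact 95% Poisson intervals. For each gene the intervals of the groups are apart at every time point, with *wnta* at 402 against 55.9 CPM at 20 hpf and 937 against 119 CPM at 30 hpf.

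Among the Hox and ParaHox genes, 6 of the 14 listed were high enough to compare. Of these, 3, 4 and 4 were higher in *hox7*+ cells and 2, 2 and 1 lower. Over all features 2.20%, 4.56% and 4.68% were higher and 3.52%, 4.04% and 6.09% lower. The count of higher genes holds *hox7*, which the rule sets. *hox7*, *lox* and *eve* were higher at each time point, and *hox11/13b*, a posterior Hox gene of the blastopore and hindgut, stood at 93.4, 111 and 107 CPM against 50.9, 44.2 and 47.8 CPM and was higher at 24 and 30 hpf. *hox11/13c*, which the study lists as a pigment marker, was lower throughout, at 4.06, 2.91 and 5.51 CPM against 226, 145 and 74.6 CPM. *hox8-1* was lower at 20 and 24 hpf, at 8.12 and 36.4 CPM against 40.6 and 151 CPM, and stood at 67.9 against 87.4 CPM at 30 hpf. *cdx*, the ParaHox gene of the hindgut in feeding larvae, had only 1, 0 and 1 UMIs in *hox7*+ cells.

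Among the lists of signalling genes, that of the Wnt ligands had the most genes called higher. The list holds *wnta*, a marker given for the label, and *wnt3*, which the study lists as a marker of rudiment ectoderm. The study chose both on a set that includes these libraries. Of 11 ligands listed, 7 were compared, of which 4, 5 and 5 were higher and 1, 0 and 1 lower, with a median log2 ratio of 1.36, 1.91 and 2.34 beside 0.03, 0.00 and 0.01 over all features. Of all features 2.20%, 4.56% and 4.68% were higher and 3.52%, 4.04% and 6.09% lower. *wnt3* stood at 73.1, 149 and 263 CPM in *hox7*+ cells, rising from library to library, against 8.71, 17.8 and 35.5 CPM. *wnt5* stood at 394, 238 and 246 CPM against 136, 55.9 and 42.3 CPM, and *wnt1* at 114, 161.8 and 91.8 CPM against 38.3, 40.9 and 10.1 CPM. *wnt6* had no UMI in *hox7*+ cells at 20 hpf, which allows up to 12.2 CPM, but stood at 74.3 and 91.8 CPM at 24 and 30 hpf, where *hox7*- cells held 3.01 and 2.41 CPM. The ligands *wnt7* (219, 239 and 202 CPM against 161, 147 and 155 CPM) and *wnt8* (28.4, 17.5 and 18.4 CPM against 20.2, 9.80 and 11.0 CPM) differed by less than 2-fold on this scale. *wnt9* was lower at 20 and 30 hpf, with 0 and 1 UMIs (0 UMIs allow up to 12.2 CPM) against 81.4 and 44.1 CPM.

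Receptors and antagonists did not share this direction. Of 22 genes of Wnt receptors and the pathway, 12, 14 and 14 were compared, of which 0, 0 and 1 were higher and 3, 4 and 2 lower, beside 2.20%, 4.56% and 4.68% of all features higher and 3.52%, 4.04% and 6.09% lower. The 1 higher call, *sfrp3/4i* at 30 hpf, was not made without the Bl+ cells, where *axin* was called higher instead. *dkk1*, a secreted antagonist, was at 56.9, 51.0 and 38.6 CPM against 366, 408 and 256 CPM. *sfrp1/5*, another, was at 4.06 and 20.4 CPM against 232 and 251 CPM at 20 and 24 hpf, and at 47.7 against 103 CPM at 30 hpf, short of the limit. *fzd5/8*, a Frizzled receptor of the anterior ectoderm, was lower at 24 and 30 hpf, at 16.0 and 11.0 CPM against 102 and 53.4 CPM.

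**Figure D5:**
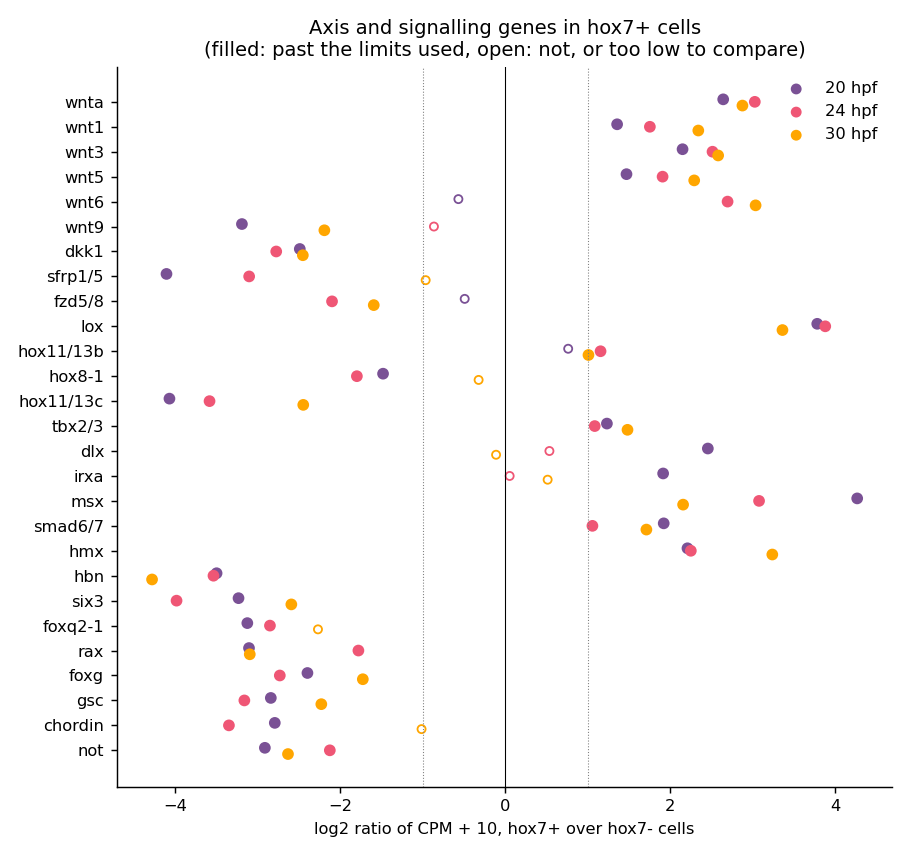
Log2 ratio of CPM + 10 in *hox7*+ over *hox7*- cells for axis and signalling genes at 20, 24 and 30 hpf, 1 point per library; dotted lines mark 2-fold, filled points are past the limits used and open points are not or were too low to compare. The ratio of *hox7* itself is not plotted, since its level in *hox7*- cells is 0 by the rule. 5 Wnt ligands lie to the right at 24 and 30 hpf and anterior and oral genes such as *hbn* (-3.50, -3.54 and -4.28) and *gsc* (-2.84, -3.16 and -2.23) lie to the left.

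Genes of the aboral ectoderm were mostly higher at 20 hpf, when 10 of the 13 compared (14 listed) were called higher and 0 were lower, beside 2.20% of all features higher. The list holds *hox7*, which the rule sets, and *msx*. At 24 and 30 hpf 6 of 13 were higher, and the median log2 ratio of the list was 1.92, 0.77 and 0.75. Without the Bl+ cells 10, 8 and 7 of 13 were higher, with medians of 2.24, 1.13 and 1.09. Over all features 196 of 5648, 195 of 5278 and 350 of 5426 were then higher. *tbx2/3* was at 191, 106 and 79.0 CPM against 75.4, 44.8 and 21.8 CPM. *smad6/7*, an inhibitory Smad that restrains BMP signalling and is itself a usual target of it, was at 2266, 1173 and 1568 CPM against 590, 558 and 471 CPM. *dlx*, *irxa*, *nkx2-2* and *klf2/4* were higher at 20 hpf alone, although *nkx2-2* was also called higher at 24 hpf without the Bl+ cells. *dlx*, a distal-less homeobox gene, was at 426 against 69.4 CPM at 20 hpf, 249 against 169 CPM at 24 hpf and 285 against 308 CPM at 30 hpf. *nkx2-2* had 406, 137 and 18.4 CPM in *hox7*+ cells, and *irxa* 548, 169 and 208 CPM. For *dlx* the level in *hox7*- cells was higher in each older library (69.4, 169 and 308 CPM), whereas for *nkx2-2* the level in *hox7*+ cells was lower in each.

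Genes of the oral side were low. *gsc*, a homeobox repressor of the oral ectoderm, was at 8.12, 4.37 and 7.35 CPM against 120, 119 and 71.3 CPM. *not*, a homeobox gene of the oral field, was at 32.5, 93.3 and 5.51 CPM against 310, 441 and 86.2 CPM. *chordin*, a BMP antagonist, was at 16.2 and 1.46 CPM against 172 and 107 CPM at 20 and 24 hpf. *nodal*, the ligand that starts the oral programme, had 1 UMI (4.06 CPM) against 63.7 CPM at 20 hpf, yet stood at 150 against 228 CPM at 24 hpf and 56.9 against 46.5 CPM at 30 hpf, so only the first of these was called. Of the 16 genes of the Nodal and BMP pathway compared, 2, 2 and 3 were higher and 5, 3 and 3 lower, where 2.20%, 4.56% and 4.68% of all features were higher and 3.52%, 4.04% and 6.09% lower.

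Of the gene lists compared, that of the anterior genes held the most lower calls, with 9 of 14, 10 of 15 and 8 of 14 genes compared lower and 0 higher at each time point (3.52%, 4.04% and 6.09% of all features were lower). Without the Bl+ cells 8, 10 and 8 were lower and 1, 2 and 0 higher, namely *foxj1*, a gene of motile cilia, at 20 and 24 hpf and *emx* at 24 hpf, which was lower at 20 hpf with all *hox7*+ cells. Of the 5648, 5278 and 5426 features then compared, 345, 363 and 498 were lower and 196, 195 and 350 higher. *hbn*, a homeobox gene of the animal pole, was at 73.1, 49.6 and 12.9 CPM against 929, 681 and 434 CPM. *six3*, which sets up the anterior neuroectoderm, was at 52.8, 23.3 and 58.8 CPM against 580, 517 and 405 CPM. *foxg* was at 69.0, 24.8 and 33.1 CPM against 406, 221 and 132 CPM, and *pax6-1* at 4.06, 5.83 and 22.0 CPM against 78.4, 81.0 and 87.0 CPM. *foxq2-1*, the classical marker of the animal plate, had 1, 2 and 0 UMIs, against 113, 83.2 and 38.2 CPM in *hox7*- cells. *rax* and *isl* were lower at each time point as well, with between 0 and 10 UMIs.

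The marker lists of other cell types differed in direction. Over all features 2.20%, 4.56% and 4.68% were higher and 3.52%, 4.04% and 6.09% lower. The 3 pigment markers compared (*mif4*, *pks1* and *hox11/13c*) were lower at each time point, with *pks1*, the polyketide synthase of pigment synthesis, at 1, 6 and 1 UMIs. The genes of the gut and left coelomic pouch that were compared were lower in 3, 4 and 4 of 4 cases, among them *endo16*, a gut gene, at 35.0 and 29.4 CPM against 116 and 118 CPM at 24 and 30 hpf. *foxa* and *bra*, genes of the blastopore and foregut, were also low, with *foxa* at 32.5, 87.4 and 23.9 CPM against 276, 226 and 55.7 CPM and *bra* at 12.2, 14.6 and 22.0 CPM against 67.8, 107 and 82.3 CPM. The calls of *foxa* and of *foxd-1*, of the gut list, at 24 hpf were lost without the Bl+ cells (log2 ratios of -0.94 and -0.91). With all *hox7*+ cells no gene of 4 lists was called in either direction at any time point. These were the Ciliary Band (2 of 4 markers compared), Neural (1 of 3), cell cycle (21 of 24) and cilium motility (7 of 11) lists. For lists of these sizes, 0 calls are close to the shares over all features. Without the Bl+ cells 2 of 7 cilium motility genes were higher at each time point, *foxj1* and *dnah5* at 20 hpf, *foxj1* and *tektin2* at 24 hpf and *tektin1-4* and *tektin2* at 30 hpf, and 1 Ciliary Band marker, *atub13*, was higher at 30 hpf. Over all features 196 of 5648, 195 of 5278 and 350 of 5426 were then higher.

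Of the 5 markers listed as Rudiment Ectoderm (Verified), which the study chose on a set that includes these libraries, 3, 2 and 3 were higher and 0 lower. Over all features 2.20%, 4.56% and 4.68% were higher. *msx* and *wnt3* were higher throughout, *dlx* at 20 hpf, and *egfi*, which encodes an extracellular matrix protein, at 30 hpf (1052 against 513 CPM). The Larval Ectoderm and Early Endomesoderm lists held calls in both directions, with *tbx2/3* of the first and *wnt1* of the second higher at each time point.

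Of the Blastocoelar list 1 of 3, 3 of 4 and 2 of 3 genes compared were higher, beside 2.20%, 4.56% and 4.68% of all features. *185/333d1*, of a multigene family of immune-type proteins and summed from 5 features, was at 1304, 4106 and 2128 CPM against 1032, 1091 and 654 CPM. *astacin4* was at 585, 2330 and 1656 CPM against 585, 586 and 451 CPM. Both genes helped to define the Bl+ cells. Without the Bl+ cells their log2 ratios lay between -6.10 and -3.58. These ratios are in part set by the division, since *hox7*- cells with the same markers stayed in. The call of *msp130r2*, a skeletal marker, at 20 hpf (52.8 against 5.04 CPM) rested on 13 UMIs, and no UMI remained in Bl- cells.

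The strongest lower values belonged to enzymes and other genes named by rank. *cryz-1*, of the quinone oxidoreductase family, had 7, 29 and 24 UMIs, or 28.4, 42.3 and 44.1 CPM, against 1536, 1173 and 1129 CPM. *sult1c-2*, a sulfotransferase, was at 8.12, 17.5 and 11.0 CPM against 490, 411 and 387 CPM. *mif4*, of the macrophage inhibitory factor family, was at 102, 150 and 127 CPM against 2847, 2681 and 1917 CPM. *ap2*, a transcription factor gene, had 0, 9 and 18 UMIs against 242, 478 and 569 CPM, and *prdm14-1*, another, 4, 5 and 26 UMIs against 535, 418 and 490 CPM. *hypp-1597*, *pofut1l4* and *kcnk4* also belonged to this group, with at most 15 UMIs each at any time point.

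Some genes were higher at 1 time point alone, at times because they were too low to compare at the others. *tgfb*, named for a TGF-beta type ligand, had 0, 19 and 87 UMIs in *hox7*+ cells, the last being 160 CPM against 20.3 CPM. *cara14la* was abundant in both groups at 30 hpf, at 8904 against 2660 CPM, with log2 ratios of 0.59, 0.93 and 1.74. *vwdf-1* was at 703 against 135 CPM at 20 hpf, with a log2 ratio of 2.30 there and of 0.74 and 0.73 later. The other names of this group were *my18a*, *mmp1/3l2* and *hypp-2640* at 30 hpf and *rergl2*, *064-2*, *064-3*, *hypp-2851* and *hypp-2415* at 24 hpf. Of these, *hypp-2851* and *hypp-2415* lost the call and changed sign without the Bl+ cells, and *064-2* and *064-3* were then called lower. Without the Bl+ cells *cara14la*, *tgfb* and *vwdf-1* were also called higher at 24 hpf and *rergl2* at 30 hpf. *ephrin*, the ligand of Eph receptors, was higher at 20 and 24 hpf (2790 and 1696 CPM against 393 and 582 CPM) and stood at 1862 against 1253 CPM at 30 hpf.

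The lists of transcription factors that the study proposed for adult ectoderm were chosen on libraries that include these and are not independent evidence. Of the 9 candidates for posterior ectoderm, 6, 7 and 7 were compared, and 4, 3 and 3 were higher, namely *lox*, *msx* and *egr* throughout and *irxa* at 20 hpf, while 1, 0 and 0 were lower. Over all features 2.20%, 4.56% and 4.68% were higher and 3.52%, 4.04% and 6.09% lower. Of the 24 candidates for rudiment ectoderm, 9, 9 and 13 were compared, of which 2, 1 and 0 were higher and 0, 1 and 5 lower. *lmo4*, one of these, was at 73.1 and 90.4 CPM against 25.9 and 38.3 CPM at 20 and 24 hpf, and at 84.5 against 114 CPM at 30 hpf. *nr1x*, a nuclear receptor, was lower at 24 and 30 hpf, at 45.2 and 60.6 CPM against 107 and 234 CPM.

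Within the Bl- cells the posterior genes were not evenly shared. The Bl- cells with a *wnt1* UMI (13, 36 and 37 cells), a group chosen after its values were seen, had 640, 391 and 399 CPM of *hox11/13b*, where the Bl- cells without *wnt1* (104, 161 and 304 cells) had 41.4, 77.8 and 105 CPM. *p75ntr* stood at 1236, 1103 and 599 CPM against 284, 265 and 217 CPM. *hmx* went the other way, with 85.3, 281 and 244 CPM against 1543, 1063 and 709 CPM. *eve* was at 938 and 481 CPM against 231 and 143 CPM at 20 and 24 hpf, and at 155 against 150 CPM at 30 hpf. *wnta* differed little between them, at 512, 812 and 1087 CPM against 497, 615 and 1216 CPM, and depths were close (medians of 1691, 2382 and 1112 UMIs against 1521.5, 2261 and 1110.5).

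Cells with *msx* or *lox* but no *hox7* were the nearest comparison, each with at least 2 UMIs of the gene, and were few at 20 hpf, with 4 and 10 cells. There 0.270% and 0.635% of features were higher and 1.24% and 1.16% lower in the *hox7*+ cells. For both comparisons, here and below, the *hox7*+ cells include the Bl+ cells, and counts without the Bl+ cells are not given. At 30 hpf the *hox7*+ cells differed from 90 *msx* cells without *hox7* in 607 of 5548 features that were higher (10.9%) and 564 lower (10.2%). *unc4.1-1* stood at 2103 against 72.0 CPM, *hmx* at 505 against 30.0 CPM and *lox* at 275 against 12.0 CPM, while *wnt3* (263 against 150 CPM) and *tbx2/3* (79.0 against 42.0 CPM) were not apart. At 24 hpf, against 43 such cells (5.34% of features higher and 5.81% lower), *unc4.1-1* stood closer, at 956 against 505 CPM, and *wnt5* at 238 against 246 CPM.

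The *lox* cells without *hox7* held gut genes. Against 23 of them at 24 hpf 3.37% of features were higher and 3.46% lower, and against 25 of them at 30 hpf 2.90% were higher and 4.68% lower. *foxa* stood at 87.4 CPM in *hox7*+ cells and 1587 CPM in these cells at 24 hpf, and at 23.9 and 1721 CPM at 30 hpf. *endo16* stood at 35.0 against 537 CPM and 29.4 against 2060 CPM. *unc4.1-1* had 1 UMI in the *lox* cells without *hox7* at 24 hpf (12.8 CPM) and none at 30 hpf. It thus set the *hox7*+ cells apart from them, where *wnta*, at 479 against 448 CPM at 24 hpf, did not.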

How the data were processed

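Comparisons were made within the single-cell libraries of 20, 24 and 30 hpf, and those of 6, 9, 12 and 16 hpf served only for the share of *hox7*+ cells and as an added observation. The authors deposited the Cell Ranger matrices of raw counts (UMIs) of 38707 features per barcode, not normalized (Cell Ranger 3.1.0 and Seurat 4.0 are named in the submitters' processing notes). The genome build is not given in the sources used here. Names were put in lower case, the prefix Sp- was removed and features of 1 name were summed, which gave 20615 names. Doublets were kept.

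UMIs were summed over cells with Python 3.11.15, numpy 2.4.6, scipy 1.17.1 and pandas 2.3.3, scanpy 1.11.5 scored doublets with Scrublet, and figures used matplotlib 3.10.9. With 1 library per time point no test was made. A feature with a mean of at least 20 CPM was called at a 2-fold ratio of CPM + 10 with 95% Poisson intervals apart. The steps were tested on simulated data. An upper limit for 0 UMIs rests on 3 counts. The depth of *hox7*+ cells summed was between 246250 and 686140 UMIs per library.

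Named genes were *hox7*, *wnta*, *lox* and *msx*, list genes called the same way at 2 or 3 time points (others as values or counts), up to 15 names higher and 10 lower at all 3 time points by their smallest ratio, and up to 5 names per time point higher there alone. Some genes that this rule names are not reported here. The members and lists were chosen with earlier results of these data known.

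Alternatives were other *hox7* minimums, cell filters, depths, thinning, means over cells, scaling, pseudocounts, minimum levels, folds, doublets removed and, added after the data were seen, leaving out Bl+ cells or those with an *scl* UMI.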

Additional observations from a re-analysis of the deposited data

Results flagged for a closer look

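The log2 ratio of *a2ml1l* in *hox7*+ over *hox7*- cells was lower at 20 hpf (-1.01) and higher at 24 and 30 hpf (1.10 and 1.69), so that it changed direction between the libraries. Without the Bl+ cells, and with the *hox7*- cells unchanged, the ratios were -2.20, -1.71 and -1.66. The difference between the libraries was not tested, since each time point has 1 library.

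The log2 ratio of *giant*, a transcription factor gene, was 2.28 at 20 hpf, -0.49 at 24 hpf and -2.32 at 30 hpf, higher in the first and lower in the last. *hox7*+ cells held 18, 18 and 20 UMIs of it, or 73.1, 26.2 and 36.7 CPM, while *hox7*- cells were at 7.10, 40.8 and 223 CPM. Without the Bl+ cells the ratios were 2.60, -0.46 and -2.78, and this difference was not tested either.

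Cells with at least 2 *hox7* UMIs were also present in libraries that the comparisons do not use, at 1.54% (62 of 4034 cells) at 9 hpf, 0.0637% (3 of 4706) at 12 hpf and 1.85% (9 of 486) at 16 hpf. At 6 hpf there were 0 of 2065, which allows a share of up to 0.145%.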

How the results depend on the processing

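The log2 ratios of named genes kept their call in 178 of 178 cases with no filter on cells, a pseudocount of 1 CPM or a minimum of 5 CPM, in 157 with a minimum of 1 *hox7* UMI and in 146 with a pseudocount of 50 CPM. 16 of the 178 calls were lost with cells thinned to 500 UMIs. None of these settings gave a call in the opposite direction. Counts of features higher (at 20, 24 and 30 hpf and at all 3) were 41, 77, 81 and 20 with a pseudocount of 50 CPM, 296, 627, 793 and 106 at a fold of 1.5, and 21, 18, 27 and 10 at a fold of 4. Counts lower were 82, 80, 122 and 40, then 327, 576, 734 and 170, and 81, 65, 67 and 34. The mean of single-cell CPM gave 151 and 170 higher at 24 and 30 hpf, and thinning to 500 UMIs gave 118 lower at 20 hpf. A minimum of 1 *hox7* UMI gave 87 higher and 49 lower at all 3 and 122 lower at 20 hpf, with shares of *hox7*+ cells of 7.76%, 10.7% and 10.96%. A minimum of 3 gave shares of 3.57%, 5.81% and 6.00%, and *hypp-2618* at -0.65 at 20 hpf.

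Thinning to 1000 UMIs gave shares of 28.5%, 36.3% and 47.2% for *wnta*, 26.9%, 31.6% and 19.2% for *lox* and 32.3%, 25.3% and 24.7% for *msx*, and without thinning they were 40.0%, 52.4% and 55.2%, 36.4%, 51.6% and 26.0%, and 37.1%, 41.1% and 29.5%.

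Bl+ cells were left out of the *hox7*+ group alone, with the *hox7*- cells unchanged, a step chosen after seeing the data. This gave 196 higher at 20 hpf and 59 at all 3, with 345 and 363 lower at 20 and 24 hpf and 148 at all 3. The shares were 3.801%, 5.73% and 6.38%. Of the 178 calls for named genes, 163 were kept, 9 were lost and 6 became calls in the opposite direction. Log2 ratios then reversed for *064-2* (-1.01), *064-3* (-1.84), *185/333d1* (-5.62), *astacin4* (-4.49), *hypp-2415* (-0.71) and *hypp-2851* (-1.15) at 24 hpf, *185/333d1* (-3.58) and *astacin4* (-4.24) at 30 hpf, *hypp-2618* (-1.26, -1.20 and -0.99) and *msp130r2* (-0.59) at 20 hpf. Leaving out only *hox7*+ cells with an *scl* UMI, also chosen after seeing the data, gave 158 higher at 24 hpf, 326 lower at 20 hpf, a share of 5.96% at 24 hpf, and ratios of -0.14 for *185/333d1* and -0.036 for *hypp-2851* at 24 hpf and of -0.67 for *hypp-2618* and -0.59 for *msp130r2* at 20 hpf. The causes of these changes were not tested.

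A single feature is named *hox7*, so taking the one with most UMIs changed nothing. No paired analysis was possible because each time point has 1 library, and depth limits genes with few UMIs in the *hox7*+ cells.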

Other observations

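In the 62 cells with at least 2 *hox7* UMIs at 9 hpf the listed markers of posterior ectoderm other than *hox7* were at 0 or 1 UMI. *hox7* stood at 679 CPM in them, *wnta* and *msx* had no UMI, and *lox* and *unc4.1-1* had 1 UMI each. In *hox7*- cells *wnta*, *msx*, *lox* and *unc4.1-1* were also low, at 0.808, 0.505, 2.83 and 8.89 CPM. The low counts therefore do not tell the groups apart. *hbn* stood at 315 CPM against 537 CPM in *hox7*- cells, *eve* at 124 against 227 CPM and *wnt1* at 129 against 282 CPM, while *hmx* stood at 71.7 against 43.9 CPM. These cells were deeper than the *hox7*- cells, with medians of 3091 against 2442 UMIs.

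The 9 such cells at 16 hpf held *scl* at 7239 CPM against 2263 CPM in *hox7*- cells, *wnta* at 228 against 60.4 CPM (5 UMIs) and *smad6/7* at 865 against 495 CPM. The 3 such cells at 12 hpf held 95 UMIs of *scl* and none of *wnta*, *lox*, *msx* or *unc4.1-1*. Those 4 genes stood at 5.09, 0.993, 0.372 and 8.69 CPM in *hox7*- cells, so their absence from 3 cells tells nothing.

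Among the Bl- cells thinned to 500 UMIs, *hmx* and *wnt1* were found in the same cell in 0 of 115, 1 of 197 and 1 of 337 cells, where the product of their shares would give 2.77, 4.29 and 4.29 cells. The pair was chosen after its values were seen.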
